A study of Mus musculus with 6 samples.

Results

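The spliceosomal snRNP proteins examined here are the products of 48 genes, taken by name from a list of the Sm ring, the LSm ring of U6, and the proteins of the U1, U2, U4/U6, U5, tri-snRNP and U11/U12 particles, with the U2AF splice site factors. All 48 names were found among the 54532 genes of the deposited table, and the rule is by name, with no threshold on a measured value. Messenger RNA was sequenced in 6 libraries of cells labelled STRA8+ from mouse testis, STRA8 being a protein that germ cells make on entering meiosis. The 3 control libraries carried the genotype Cre, and the 3 knockout libraries were made from animals with a conditional deletion. The labels name neither strain, age, Cre driver nor deleted gene, nor the animals behind each library, so p-values measure only library-to-library spread, possibly technical. BCAS2 and hnRNPH1 stand in the study's title, a subunit of a spliceosome complex and an RNA-binding splicing regulator, and the comparison of knockout with control asks here whether the messages for the snRNP core machinery moved with the deletion.

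Spliceosomal snRNPs are small nuclear RNAs wrapped in proteins. The U1 particle pairs with the 5′ splice site, the U2 particle with the branch site, and U4, U5 and U6 arrive together as the tri-snRNP, which is rearranged into the catalytic core. A minor spliceosome, built on U11 and U12 in place of U1 and U2, removes a small class of introns. Most of these RNAs carry a ring of Sm proteins on a short uridine-rich Sm site, whereas U6 carries a ring of LSm proteins on the uridine run at its 3′ end. Germ cells pass through meiosis with heavy use of alternative splicing, and testis RNA is rich in cell-type-specific isoforms.

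Of the RNAs that the proteins bind, U1, U2, U11 and U12 are shown first because the grouping of the genes follows such RNAs. They were read from GRCm38 with GENCODE M21 gene models, 5′ to 3′, as DNA letters. Capitals mark the first stretch matching the Sm site (ATTTNTG or ATTTNTTG).
Rnu1a1 (U1), chr11:87422867-87423030, plus strand: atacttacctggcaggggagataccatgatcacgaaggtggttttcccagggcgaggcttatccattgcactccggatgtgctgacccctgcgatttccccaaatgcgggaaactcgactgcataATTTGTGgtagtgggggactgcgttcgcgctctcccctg
Rnu2-10 (U2), chr11:101658238-101658428, plus strand: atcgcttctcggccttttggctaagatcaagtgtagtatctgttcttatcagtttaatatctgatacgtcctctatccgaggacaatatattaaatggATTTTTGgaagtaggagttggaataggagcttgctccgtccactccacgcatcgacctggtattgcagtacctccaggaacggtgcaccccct
Rnu11 (U11), chr4:132270080-132270213, minus strand: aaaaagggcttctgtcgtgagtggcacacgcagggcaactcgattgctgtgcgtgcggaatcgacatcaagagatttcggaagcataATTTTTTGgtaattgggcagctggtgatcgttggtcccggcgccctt
Rnu12 (U12), chr15:83149644-83149794, plus strand: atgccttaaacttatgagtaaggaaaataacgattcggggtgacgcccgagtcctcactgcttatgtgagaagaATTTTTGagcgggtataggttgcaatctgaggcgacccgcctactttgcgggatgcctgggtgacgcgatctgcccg
Of the 1383 snRNA transcripts in that annotation, 306 (22.1%) held either form of the Sm site on the transcribed strand. These short RNAs were almost absent from the libraries: each of the 4 genes had between 0 and 7 reads per library, so their own levels could not be compared.

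The libraries held 14532453 to 16963019 reads, recovered from the deposited values. Beside the marker counts below stand the shares over all genes tested, 36.2% called higher and 50.4% called lower as deposited. With FPKM rescaled these shares were 54.2% and 36.2%. Pachytene spermatocyte markers fell in 12 of 12 genes tested, with summed levels of 5987 to 7258 FPKM in control libraries and 58.7 to 78.9 FPKM in knockout libraries. Spermatid markers fell in 12 of 12, from 18277 to 21285 FPKM down to 5.38 to 9.25 FPKM. Sertoli cell markers rose in 11 of 11, from 129 to 304 FPKM up to 530.0 to 952 FPKM. Undifferentiated spermatogonial markers rose in 5 of 8 and fell in 2 as deposited, with sums of 51.3 to 72.1 FPKM in control libraries and 255 to 328 FPKM in knockout libraries. Differentiating spermatogonial markers rose in 7 of 9 and fell in 1, Dmrtb1 (388 to 26.0 FPKM), and their sums overlapped, at 404 to 499 FPKM in control libraries and 378 to 416 FPKM in knockout libraries. Dmrtb1 alone had 398, 330 and 437 FPKM in control libraries and 22.9, 26.7 and 28.5 FPKM in knockout libraries. It made up most of the control sums, and their overlap with the knockout sums as deposited rests on it. As a share of all reads, these markers with Dmrtb1 took 0.0636%, 0.0661% and 0.0788% in control libraries. In knockout libraries they took 0.109%, 0.105% and 0.121%, so the shares did not overlap. Leydig cell markers fell in 4 of 6 and rose in 1 as deposited (1 lower and 1 higher with FPKM rescaled). Their sums as deposited went from 89.2 to 148 FPKM down to 15.6 to 68.8 FPKM. Their shares of all reads overlapped, at 0.0107% to 0.0181% in control libraries and 0.00627% to 0.0162% in knockout libraries. Peritubular markers summed to 13.8 to 31.7 FPKM in control libraries and 21.2 to 38.2 FPKM in knockout libraries, which overlapped as deposited. Their shares of all reads, 0.00246% to 0.00654% in control libraries and 0.00730% to 0.0133% in knockout libraries, did not overlap. Macrophage and blood markers summed to 137 FPKM in knockout library 1 and to 55.2 and 61.1 FPKM in the other two, and leaving out library 1 changed no call among the snRNP genes. No marker of these lists was listed at 0 in every library of a group. Stra8 itself went from 17.0 ± 5.55 to 132.8 ± 6.42 FPKM (SD, n = 3). In bulk samples, fewer cells of a type and less RNA per cell cannot be told apart, and the part of these cell type shifts in the values below was not tested. Bcas2 had 19.9 ± 0.586 FPKM in control libraries and 4.85 ± 0.515 FPKM in knockout libraries, and Hnrnph1 had 63.8 ± 3.26 and 140.1 ± 14.0 FPKM. The extraction protocol speaks of retinas, but a list of 10 photoreceptor genes summed to 1.93 to 3.15 FPKM in every library, with Crx and Opn1sw at 0 in all 6.

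Levels are FPKM (fragments scaled by gene length and library size) as deposited, and differences are log2 fold changes, knockout minus control, on a log2(FPKM + 0.5) scale, where changes of low genes come out too small. They were tested with limma across all 16791 genes averaging 1 FPKM or more, at an adjusted p of 0.05. The deposited scale matters for every value below. Over all genes tested the median change stood at -0.41 on the deposited scale, and it moved up by 1.12 when the FPKM of each library were made to sum to 1000000 ("FPKM rescaled" below), by 0.94 with quantile normalization, by 0.83 with reads rescaled to 1000000, and by 0.04 with median-of-ratios factors. Each particle median is for this reason also given as its distance from that value ("above all genes").

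Most snRNP protein messages were higher in the knockout, and those that were lower as deposited were few. Of the 47 genes that passed the filter on low values, 26 rose, 8 fell and 13 did not pass the test as deposited. Among all genes tested, 36.2% were called higher and 50.4% lower. The exception to the filter was U2af1l4, a paralog of U2af1, with 4, 1 and 6 reads in control libraries and 8, 1 and 1 reads in knockout libraries. The median log2 fold change of the 47 was 0.48, which is 0.90 above the median of all genes, and 40 of the 47 lay above that median. Changes of at least 1 on the log2 scale were found in 11 genes that rose and 2 that fell, where the shares over all genes were 23.3% and 41.1%. The knockout and control values did not overlap in 35 of the 47 genes, a share below the 88.0% found over all genes tested.

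The direction of the lower calls rested on the scale. With FPKM rescaled, 44 of the 47 were higher and 1 was lower, against 54.2% higher and 36.2% lower over all genes. Quantile normalization also gave 44 and 1, against 52.1% and 36.8%, and reads rescaled gave 41 and 1, against 50.6% and 38.9%. Median-of-ratios factors stayed close to the deposited scale, with 27 higher and 8 lower, against 37.0% and 49.8%. All 13 genes that did not pass as deposited were called higher under each of the 3 rescalings, and 7 of the 8 lower calls were no longer lower under any of them. The 26 higher calls held under all 5 scalings, but the rescalings move all genes up, and 6074 of the 6075 higher calls over all genes (36.2% of the genes tested) held too. The 1 lower call that held was Snrnp35, and 34.2% of all genes tested were lower under all 5 scalings. As a share of all reads, the 48 genes took 0.240%, 0.278% and 0.285% in control libraries and 0.645%, 0.651% and 0.702% in knockout libraries. As summed FPKM they had 991, 1028 and 1066 in control libraries and 1183, 1244 and 1311 in knockout libraries. For the 48 together, both measures thus put every knockout library above every control library, by different amounts. Summed FPKM did not do so for each particle. U11/U12 had 38.8, 39.2 and 43.0 in control libraries and 31.5, 32.0 and 35.1 in knockout libraries. The sums of U2 and of the tri-snRNP proteins overlapped, and those of the other particles and U2AF were higher in every knockout library.

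**Figure D1:**
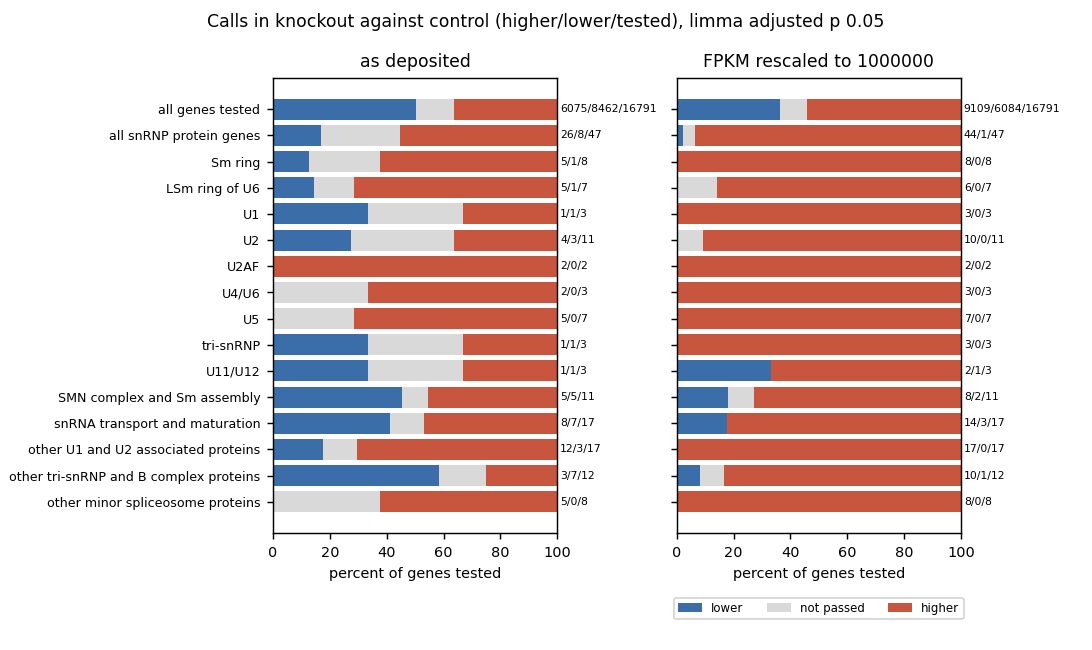
Percent of genes tested that were called higher, lower or neither in the knockout (limma, adjusted p 0.05) for all genes tested, for the snRNP protein genes by particle and for related lists, with values as deposited on the left and after rescaling them to sum to 1000000 on the right. The numbers beside each bar are genes higher, lower and tested. The snRNP genes went from 26 higher and 8 lower as deposited to 44 higher and 1 lower after rescaling.

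The Sm proteins form the ring at the heart of the U1, U2, U4 and U5 particles and of U11 and U12. Of 8 Sm genes, 5 rose and 1 fell as deposited, and the median was 0.48 (0.90 above all genes). Counts called here and in the particles below are as deposited. Beside them stand the shares over all genes tested, 36.2% higher and 50.4% lower. Snrpe, encoding SmE, had 11.1, 24.1 and 16.7 FPKM in control libraries and 41.3, 57.9 and 54.0 FPKM in knockout libraries. The groups stood well apart, although the controls spread more than 2-fold, and the log2 fold change was 1.58 ± 0.262 (SE; limma adjusted p = 0.00059). Snrpb, encoding SmB and its longer splice form SmB', had 33.5, 44.1 and 34.6 FPKM in control libraries and 79.7, 86.9 and 92.3 FPKM in knockout libraries. It rose by 1.20 ± 0.124 on the log2 scale (SE; limma adjusted p = 3.4e-05) and went from rank 8 to rank 1 by level among the 48 genes. Snrpg, encoding SmG, had 14.6, 20.9 and 27.5 FPKM in control libraries and 39.8, 39.1 and 44.4 FPKM in knockout libraries, a log2 fold change of 0.99. Every knockout library again lay above every control library.

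Snrpd3, encoding SmD3, changed less, from 8.97, 8.93 and 10.1 FPKM to 12.9, 14.0 and 12.8 FPKM (log2 fold change 0.48). Snrpf, encoding SmF, had 9.83, 11.5 and 8.01 FPKM in control libraries and 12.8, 13.9 and 14.6 FPKM in knockout libraries, also 0.48. The value of Snrpf is uncertain: 89.5% of its 50-base stretches also occur in other annotated genes, 58.5% in Ccdc38 on the opposite strand, whose level went from 265 to 0.695 FPKM. Snrpd1, encoding SmD1, was among the most abundant and did not pass the test as deposited, with 69.5, 68.0 and 70.2 FPKM in control libraries and 67.0, 81.0 and 76.0 FPKM in knockout libraries. The groups of Snrpd1 overlapped, and the 95% interval of its log2 fold change ran from -0.11 to 0.32. Snrpd2, encoding SmD2, which pairs with SmD1 in the ring, had 41.1, 44.5 and 60.6 FPKM in control libraries and 29.6, 28.7 and 26.6 FPKM in knockout libraries. It fell as deposited, with a log2 fold change of -0.76 ± 0.147 (SE; limma adjusted p = 0.0015), but it was higher with FPKM rescaled (0.42) and with quantile normalization (0.50).

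Snrpn, encoding SmN, an imprinted paralog of SmB best known from brain, had 1.52, 2.19 and 2.26 FPKM in control libraries and 1.56, 1.58 and 1.57 FPKM in knockout libraries. These were the lowest levels of the ring, the groups overlapped, and the log2 fold change of -0.25 did not pass the test as deposited. The log2 ratio of Snrpb to Snrpn within a library, with 0.5 FPKM added to both, depends on the scaling between libraries only through that addition. It was 4.07, 4.06 and 3.67 in control libraries and 5.28, 5.39 and 5.49 in knockout libraries. The difference was 1.46, with an exact two-sided permutation p of 0.1, which is the smallest that 3 libraries against 3 allow, and 0.125 after Benjamini-Hochberg adjustment over the 5 ratios tested. Of the stretches of Snrpn, 26.5% occur in other genes. The highest mean level in the Sm ring was 34.8 times the lowest in the controls and 55.0 times in the knockout.

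**Figure D2:**
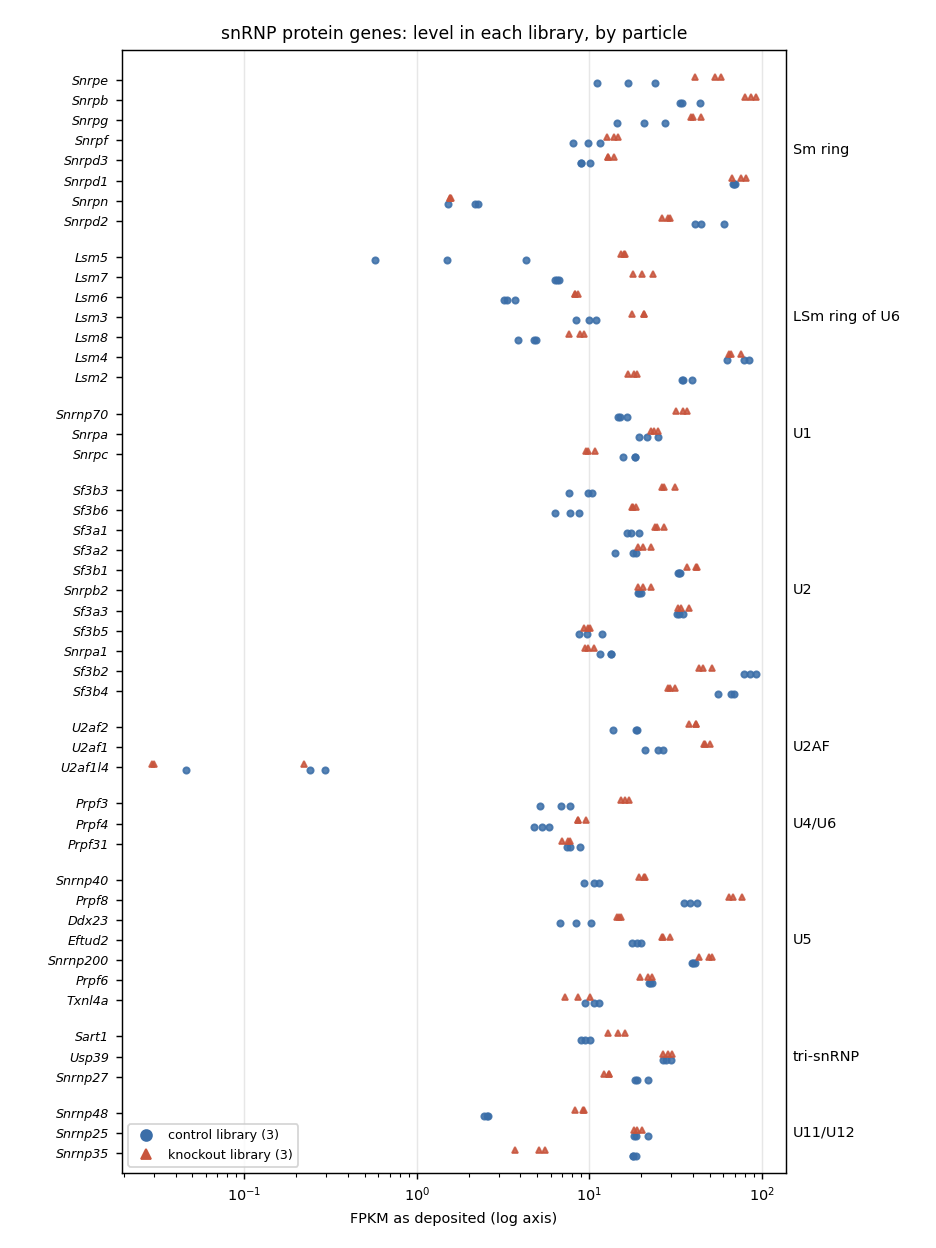
Level of each snRNP protein gene in each library, as deposited FPKM on a log axis, grouped by particle. Each point is 1 library, and control and knockout libraries have different colours. Snrpb and Snrpe sit clearly higher in the 3 knockout libraries, Snrpd1 overlaps, and Snrnp35 and Lsm2 sit lower as deposited (with FPKM rescaled, Lsm2 had a log2 fold change of 0.17).

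The LSm ring of U6 consists of Lsm2 to Lsm8, and Lsm8 is what sets this nuclear ring apart from the cytoplasmic ring with Lsm1, which acts in mRNA decay. Of the 7 genes, 5 rose and 1 fell as deposited, and the median was 0.99 (1.41 above all genes). Lsm5 had 1.51, 0.577 and 4.30 FPKM in control libraries and 16.1, 15.2 and 16.0 FPKM in knockout libraries. The controls rested on 12, 6 and 42 reads and the knockout on 276, 244 and 263, so the low group was both small and uneven while the high group was tight. The log2 fold change was 2.90 ± 0.465 (SE; limma adjusted p = 0.00049), the highest among the snRNP genes, and leaving out 1 library at a time put it between 2.39 and 3.47. Of its stretches, 21% occur in other genes.

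Lsm7 went from a mean of 6.52 ± 0.183 to 20.6 ± 2.75 FPKM (SD, n = 3), a log2 fold change of 1.58. Lsm6 went from 3.43 ± 0.270 to 8.41 ± 0.169 FPKM, a change of 1.18. Lsm3 followed with 9.77 ± 1.31 and 19.9 ± 1.83 FPKM (0.99), and Lsm8 with 4.53 ± 0.563 and 8.64 ± 0.862 FPKM (0.86). The 5 LSm genes that rose were the 5 with the lowest control levels of the ring. Lsm4, the most abundant of the ring, did not pass as deposited, with 75.6 ± 11.2 and 69.1 ± 6.12 FPKM and an interval of -0.42 to 0.18. Lsm2 had 39.7, 34.9 and 34.5 FPKM in control libraries and 16.8, 18.1 and 19.0 FPKM in knockout libraries. It fell as deposited, by 1.00 on the log2 scale (SE 0.0960; limma adjusted p = 2.3e-05), but the 3 rescalings gave 0.17, 0.03 and -0.09, none of them past the threshold. The log2 ratio of Lsm8 to Lsm1 was -0.84, -0.86 and -1.02 in control libraries and -0.48, -0.37 and -0.30 in knockout libraries. The difference was 0.53 (exact two-sided permutation p = 0.1, adjusted 0.125), and the groups did not overlap.

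**Figure D3:**
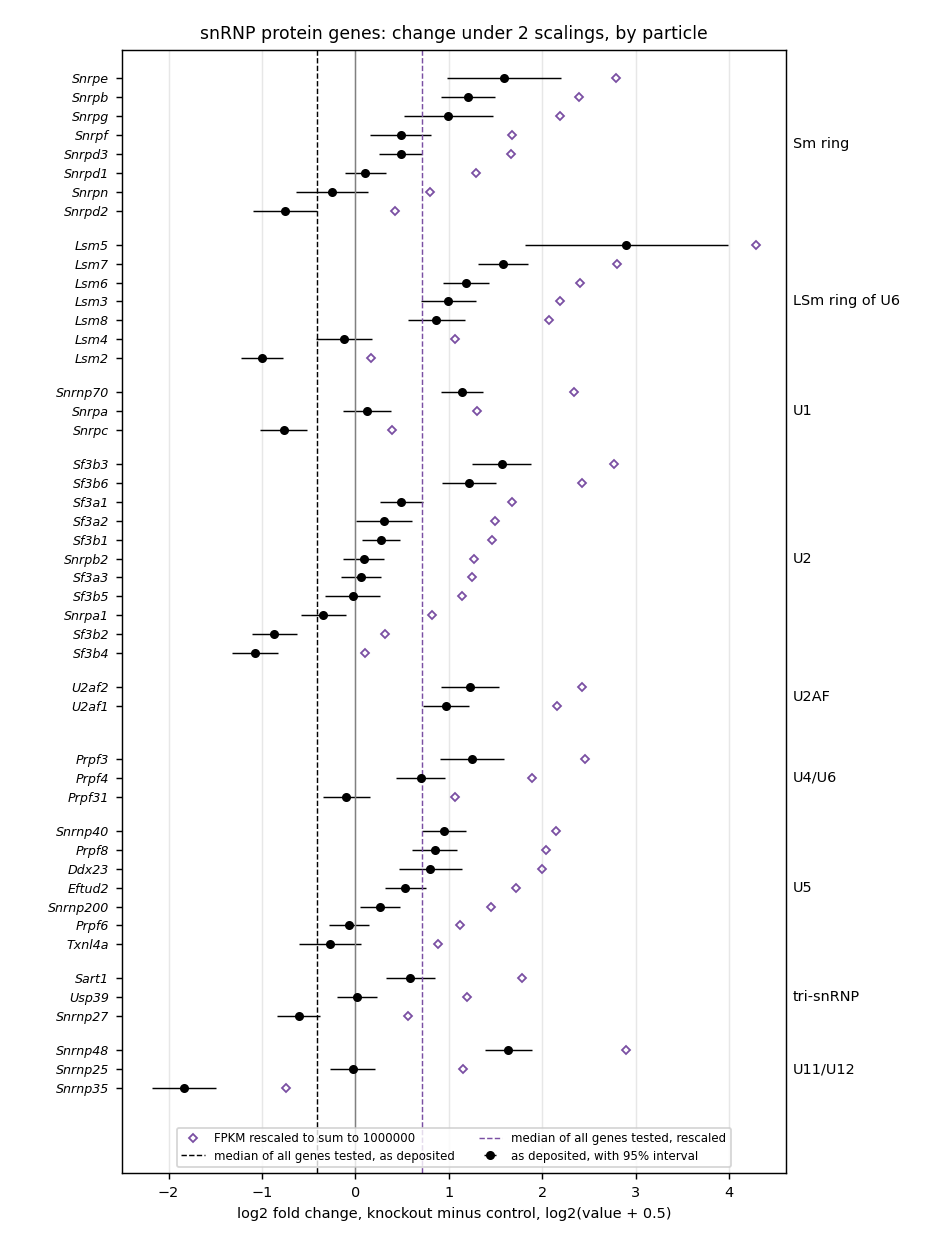
Log2 fold change, knockout minus control, of each snRNP protein gene tested, on the log2(FPKM + 0.5) scale, grouped by particle. Black points are limma estimates as deposited with 95% intervals, and open diamonds are estimates with FPKM rescaled. Dashed lines mark the medians of all genes tested, -0.41 as deposited and 0.71 rescaled. Lsm5 has the highest change at 2.90 and Snrnp35 the lowest at -1.84, and 40 of the 47 black points lie above the first line. The 7 other lower calls are not lower after rescaling.

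U1, which pairs with the 5′ splice site, has 3 specific proteins here, and as deposited 1 rose, 1 did not pass and 1 fell, with a median of 0.12 (0.54 above all genes). Snrnp70, the U1-70K protein that binds the first stem-loop of U1, had 14.7, 15.0 and 16.5 FPKM in control libraries and 36.9, 34.8 and 31.7 FPKM in knockout libraries. Its log2 fold change was 1.14 ± 0.0963 (SE; limma adjusted p = 1.1e-05). Snrpa, the A protein of U1, had 21.5, 19.5 and 25.0 FPKM in control libraries and 23.8, 22.9 and 25.0 FPKM in knockout libraries, which overlapped. Snrpc, the C protein of U1 that steadies pairing with the 5′ splice site, had 18.4, 15.6 and 18.6 FPKM in control libraries and 9.59, 9.80 and 10.8 FPKM in knockout libraries. It fell as deposited, by 0.77 on the log2 scale (SE 0.106; limma adjusted p = 0.0002), but was higher with FPKM rescaled (0.39), and quantile normalization and rescaled reads gave -0.03 and 0.12. The ratio of the highest to the lowest of the 3 levels was 1.43 in the controls and 3.43 in the knockout.

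The U2 particle holds Snrpa1 (its A' protein) and Snrpb2 (its B'' protein) together with the SF3A and SF3B complexes, which clamp U2 on the branch site. Of 11 genes, 4 rose and 3 fell as deposited, beside 36.2% and 50.4% of all genes tested, with a median of 0.09 (0.50 above all genes). As deposited the changes ran in opposite directions within SF3B, but none of its genes was called lower under the 3 rescalings. Sf3b3, a large scaffold of SF3B, had 7.65, 9.84 and 10.5 FPKM in control libraries and 26.4, 27.2 and 31.4 FPKM in knockout libraries. Its log2 fold change was 1.56 ± 0.136 (SE; limma adjusted p = 1.2e-05). Sf3b6, the small subunit that lies near the branch adenosine, went from 7.60 ± 1.18 to 18.2 ± 0.528 FPKM (SD, n = 3), a change of 1.22. Sf3b4, an RNA-binding subunit, had 69.0, 55.7 and 66.5 FPKM in control libraries and 31.3, 28.8 and 29.6 FPKM in knockout libraries. It fell as deposited by 1.07 (SE 0.104; limma adjusted p = 2.3e-05), was higher with quantile normalization (0.27), and did not pass with FPKM rescaled (0.10) or reads rescaled (-0.16). Of its stretches, 45.3% occur in other genes.

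Sf3b2, the subunit that binds Sf3b4, was the most abundant of all 48 genes in the controls at 86.1 ± 6.78 FPKM and ranked 8 in the knockout at 46.9 ± 4.31 FPKM. It fell as deposited by 0.87, but was higher with FPKM rescaled (0.31) and quantile normalization (0.64). Sf3b1, the subunit that encloses the branch helix, had means of 33.3 ± 0.435 and 40.4 ± 3.05 FPKM. It rose by 0.27 (SE 0.0875; limma adjusted p = 0.019), and lost the threshold when knockout library 2 or 3 was left out (limma adjusted p = 0.068 and 0.081). Sf3b5, a small subunit, had 10.1 ± 1.60 and 9.79 ± 0.410 FPKM and did not pass. Of the SF3A subunits, Sf3a1 rose from 17.9 ± 1.45 to 25.3 ± 1.57 FPKM (0.49). Sf3a2 (0.31; limma adjusted p = 0.056) and Sf3a3 (0.06) did not pass, and Sf3a2 overlaps Plekhj1 on the opposite strand.

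Snrpa1 fell as deposited, from 12.8 ± 1.06 to 9.98 ± 0.645 FPKM (-0.34), and was higher under the 3 rescalings (0.82, 0.35 and 0.54). Snrpb2 had 19.6 ± 0.418 and 20.9 ± 1.89 FPKM and did not pass. Snrpa and Snrpb2 are related RNA-binding proteins of U1 and U2, and their log2 ratio was 0.16 ± 0.170 in the controls and 0.19 ± 0.167 in the knockout (SD, n = 3). The difference was 0.04, less than the spread between libraries (exact two-sided permutation p = 1.0, adjusted 1.0).

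U2AF recruits U2: the U2af2 protein reads the polypyrimidine tract and U2af1 reads the AG at the 3′ splice site. Both rose, and their median of 1.10 (1.51 above all genes) was the highest of the 9 groups, from 2 genes only. With no filter on low values, the LSm ring lay higher (1.07 above all genes, against 1.04). U2af2 had 13.8, 18.8 and 18.8 FPKM in control libraries and 38.2, 41.4 and 41.9 FPKM in knockout libraries (log2 fold change 1.23 ± 0.133, SE; limma adjusted p = 4.6e-05). U2af1 had 21.2, 26.8 and 25.1 FPKM in control libraries and 46.5, 46.9 and 50.3 FPKM in knockout libraries (0.97 ± 0.107, SE; limma adjusted p = 5.2e-05). Of the stretches of U2af1, 21.7% occur in other genes, and of those of U2af2, 14.7%, so both values are uncertain. The log2 ratio of U2af1 to U2af2 was 0.60, 0.50 and 0.41 in control libraries and 0.28, 0.18 and 0.26 in knockout libraries, so the values did not overlap. The difference was -0.26 (exact two-sided permutation p = 0.1, adjusted 0.125). U2af1l4 was listed at 0.241, 0.0460 and 0.294 FPKM in control libraries and 0.223, 0.0298 and 0.0292 FPKM in knockout libraries. It was not tested at these read numbers, and 42.4% of its stretches occur in other genes. The log2 ratio of U2af1 to U2af1l4, taken with the 0.5 FPKM added to both, differed by 1.19 (exact two-sided permutation p = 0.1, adjusted 0.125). The added amount exceeds the level of U2af1l4 in every library, so this ratio says little of that gene. With 0.1 FPKM added the difference was 1.60 (exact two-sided permutation p = 0.2).

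In the U4/U6 particle, where U4 holds U6 inactive by base pairing, 2 of 3 genes rose and none fell, with a median of 0.70 (1.11 above all genes). Prpf3, which binds the U4/U6 duplex with Prpf4, had 5.17, 6.83 and 7.79 FPKM in control libraries and 15.3, 17.0 and 16.1 FPKM in knockout libraries (1.24 ± 0.148, SE; limma adjusted p = 8.1e-05). Prpf4 went from 5.33 ± 0.552 to 8.93 ± 0.528 FPKM (SD, n = 3), a change of 0.70. Prpf31, which binds the U4 stem-loop, had 7.42, 7.71 and 8.85 FPKM in control libraries and 6.97, 7.79 and 7.51 FPKM in knockout libraries, which overlapped. Its interval ran from -0.35 to 0.16, and 16.1% of its stretches occur in the opposite-strand gene Gm15927.

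U5 supplies the catalytic scaffold and the enzymes that remodel it. As deposited 5 of its 7 genes rose and none fell, beside 36.2% and 50.4% of all genes tested. The median was 0.53 (0.95 above all genes). Snrnp40, a WD40-repeat protein of U5, had 9.34, 11.3 and 10.6 FPKM in control libraries and 19.5, 20.8 and 21.1 FPKM in knockout libraries (0.94 ± 0.102, SE; limma adjusted p = 4.4e-05). Prpf8, the scaffold of the active site, went from 38.7 ± 3.25 to 70.1 ± 6.29 FPKM (0.85) and was the third most abundant of the 48 genes in the knockout. Ddx23, a helicase, went from 8.47 ± 1.73 to 14.9 ± 0.365 FPKM (0.80), and Eftud2, the GTPase of U5, from 18.9 ± 1.20 to 27.6 ± 1.77 FPKM (0.53). Snrnp200, the helicase that unwinds U4 from U6, had 40.1 ± 0.777 and 48.4 ± 4.23 FPKM. It rose by 0.26 (limma adjusted p = 0.025), but did not pass when control library 1 or 3 or knockout library 2 or 3 was left out (limma adjusted p between 0.050 and 0.10).

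Prpf6, the bridge between U5 and U4/U6, had 22.6 ± 0.555 and 21.6 ± 1.75 FPKM and did not pass. Txnl4a had 11.4, 9.44 and 10.7 FPKM in control libraries and 7.27, 8.62 and 10.2 FPKM in knockout libraries. Its groups overlapped, and its log2 fold change of -0.27 did not pass as deposited. Txnl4a overlaps Gm16286 on the same strand, which went from 4.62 to 14.3 FPKM. Of the 3 proteins that join the tri-snRNP, 1 rose and 1 fell as deposited, with a median of 0.01 (0.43 above all genes). Sart1 had 8.92, 9.40 and 10.2 FPKM in control libraries and 16.1, 12.9 and 14.6 FPKM in knockout libraries (0.59 ± 0.112, SE; limma adjusted p = 0.0013). Usp39 had 28.3 ± 1.56 and 28.6 ± 1.82 FPKM, with an interval of -0.20 to 0.23. Snrnp27 had 21.9, 18.9 and 18.4 FPKM in control libraries and 12.2, 13.0 and 13.1 FPKM in knockout libraries, falling by 0.60 as deposited (SE 0.0989; limma adjusted p = 0.00055) but higher under the 3 rescalings (0.56, 0.21 and 0.29).

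Of the 3 minor spliceosome proteins of the U11/U12 particle, 1 rose, 1 fell and 1 did not pass, with a median of -0.03 (0.38 above all genes). Snrnp35, the U11-35K protein and the counterpart of Snrnp70, had 18.0, 18.0 and 18.7 FPKM in control libraries and 5.15, 3.71 and 5.56 FPKM in knockout libraries. The groups stood far apart, and the log2 fold change of -1.84 ± 0.146 (SE; limma adjusted p = 7.4e-06) was the lowest among the snRNP genes. It was also lower with FPKM rescaled (-0.74), quantile normalization (-1.14) and reads rescaled (-0.97). Snrnp48, the U11-48K protein that contacts the 5′ splice site, had 2.59, 2.56 and 2.47 FPKM in control libraries and 8.24, 9.25 and 9.38 FPKM in knockout libraries. It rose by 1.64 ± 0.108 (SE; limma adjusted p = 2.5e-06), and its groups did not overlap. Snrnp25, the U11-25K protein, had 18.2, 18.6 and 21.8 FPKM in control libraries and 18.1, 19.0 and 20.1 FPKM in knockout libraries, which overlapped. Snrnp35 went from rank 21 to rank 46 of the 48 by level.

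**Figure D4:**
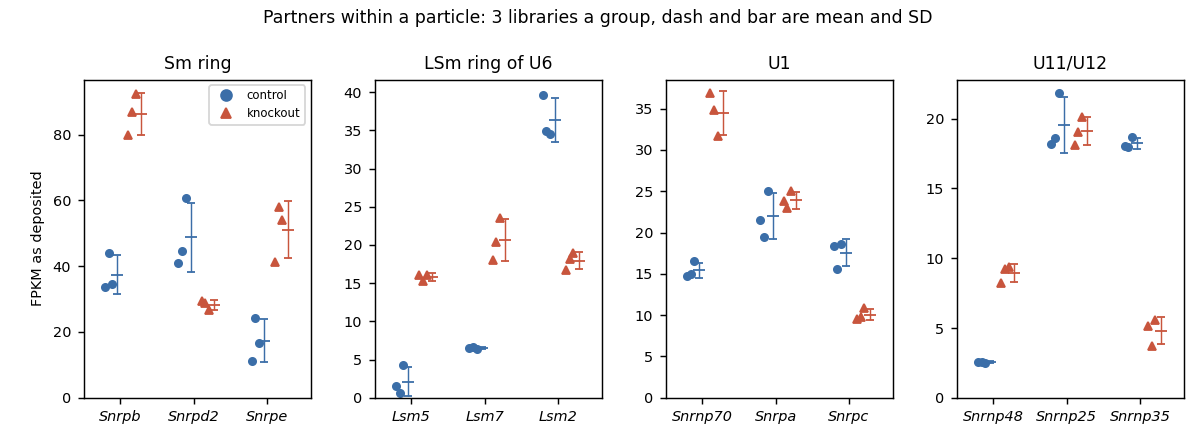
FPKM as deposited, on linear axes from 0, of 3 genes each from the Sm ring, the LSm ring of U6, U1 and U11/U12, with 1 point per library (circles control, triangles knockout) and the mean and SD of 3 libraries beside them. In each panel at least 1 gene is higher and 1 lower in the knockout as deposited, and of the lower ones only Snrnp35 is also lower after rescaling.

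Among the genes that build and move snRNPs, calls in both directions were found, as over all genes tested. Beside the counts of this and the next paragraph stand the shares over all genes. These were 36.2% higher and 50.4% lower as deposited, and 54.2% higher and 36.2% lower with FPKM rescaled. Of the 11 SMN complex and Sm assembly genes tested, 5 rose and 5 fell as deposited, with a median of 0.06, and 8 were higher and 2 lower with FPKM rescaled. Ddx20, the Gemin3 helicase of that complex, went from 156 ± 25.3 to 26.5 ± 3.93 FPKM (SD, n = 3; log2 fold change -2.54), whereas Wdr77, a partner of the Sm methyltransferase, went from 5.72 ± 0.208 to 12.8 ± 1.48 FPKM (1.09). Of 17 genes of snRNA transport and maturation, 8 rose and 7 fell as deposited, with a median of 0.30, and 14 were higher and 3 lower with FPKM rescaled. Coil, the scaffold of Cajal bodies, where snRNPs mature, went from 105 ± 10.7 to 7.37 ± 0.486 FPKM (-3.75). Tgs1, which adds the trimethylated cap of snRNAs, went from 2.28 ± 0.406 to 9.94 ± 1.09 FPKM (1.91). Ddx20 and Coil were also lower under the 3 rescalings (-1.37, -1.07 and -1.62 for Ddx20, and -2.63, -2.68 and -2.85 for Coil).

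Other proteins around the particles are given from the remaining lists. Of 17 further U1- and U2-associated genes, 12 rose and 3 fell as deposited, with a median of 0.62. Htatsf1, a U2-associated protein, rose by 1.74, and Luc7l3, a U1-associated one, by 1.54. Ddx46, the helicase that remodels U2, fell by 0.96 as deposited, and was higher with FPKM rescaled (0.22) and quantile normalization (0.29). Of 12 further tri-snRNP and B complex genes, 3 rose and 7 fell as deposited, with a median of -0.40, beside the -0.41 of all genes, and 10 were higher and 1 lower with FPKM rescaled. Wbp4 fell by 1.53 as deposited and was lower under the 3 rescalings, and Ppih, a cyclophilin of the tri-snRNP, rose by 0.82. Of 8 further minor spliceosome genes, 5 rose and none fell, with a median of 0.44. Zrsr2, which reads the 3′ splice site of minor introns, went from 1.78 ± 0.197 to 10.9 ± 0.784 FPKM (2.32), and Zcrb1 rose by 0.23. Among 1385 rows annotated as snRNA genes, 82 passed the filter, of which 28 rose and 20 fell as deposited. Gm25493, of 103 bases, was listed at 0 in all 3 knockout libraries after a mean of 31.2 FPKM in the controls, from 42, 45 and 25 reads. Gm23966, of 107 bases, went from 0.727 ± 0.712 to 8.34 ± 1.07 FPKM (SD, n = 3). It had 0, 2 and 1 reads in control libraries and 22, 16 and 18 reads in knockout libraries.

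Lsm5 (ENSMUSG00000091625) lies on chromosome 6 at 56701063 to 56704710, minus strand, and Snrnp35 (ENSMUSG00000029402) on chromosome 5 at 124483134 to 124491124, plus strand, in mm10, and both are protein-coding. RefSeq promoters on GRCm38.p6 were found for 37 of the 48 genes, 46 promoters in all. The 250 bases upstream of the RefSeq start, the last of which fall within the gene models of the deposited table, are shown for the genes with the highest and the lowest change, Lsm5 and Snrnp35, with capitals for matches to the 4 motifs searched on both strands, ETS (CCGGAAG), NRF1 (GCATGCG), NF-Y (CCAAT) and the TATA box (TATAAA).
Lsm5, chr6:56704700-56704949, minus strand: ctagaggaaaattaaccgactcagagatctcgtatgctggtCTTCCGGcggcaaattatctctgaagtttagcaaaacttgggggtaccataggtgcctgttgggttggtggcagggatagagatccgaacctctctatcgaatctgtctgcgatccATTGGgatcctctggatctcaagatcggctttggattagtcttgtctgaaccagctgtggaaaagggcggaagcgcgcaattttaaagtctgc
Snrnp35, chr5:124482905-124483154, plus strand: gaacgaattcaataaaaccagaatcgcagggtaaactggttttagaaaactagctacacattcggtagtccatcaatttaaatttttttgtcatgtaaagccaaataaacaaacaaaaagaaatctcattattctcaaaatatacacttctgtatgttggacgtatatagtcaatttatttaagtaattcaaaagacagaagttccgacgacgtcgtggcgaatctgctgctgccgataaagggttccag
The Lsm5 window held 1 match to the ETS motif and 1 to the NF-Y motif, both on the reverse strand, and the Snrnp35 window held none of the 4. Over the 46 promoters, 14 (30.4%) held the ETS motif, beside 6.91% of all 32851 promoters of that length, and 15.2% held the NRF1 motif, beside 3.02%. The NF-Y motif stood in 30.4% beside 33.8%, and the TATA motif in 8.70% beside 12.4%. The median GC content was 57.0% in the 46 promoters and 52.4% in all promoters, so promoters of equal base composition were not compared. These matches describe letters only. None of the 48 genes lies on a sex chromosome, and chromosome 7 carries the most, with 8.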

How the data were processed

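Levels of 48 snRNP protein genes were compared between 3 knockout and 3 control RNA-seq libraries of mouse testis STRA8+ cells, grouped by title. HISAT2 2.0.5 and the mm10 build are named in the submitters' processing notes. No source used here gives the counter, annotation or strand setting. Genes that overlap another gene (17 of the 48) or share over 10% of their 50-base stretches with other genes (14) therefore have uncertain values. The 14 are Eftud2, Lsm5, Lsm7, Prpf31, Sf3a2, Sf3b4, Snrpa, Snrpf, Snrpg, Snrpn, Txnl4a, U2af1, U2af1l4 and U2af2. For 54532 genes, FPKM values were deposited by the authors. Multiplied by gene length they gave whole reads for 100% of values, within 0.01 read. The divisor behind the deposited FPKM was 0.691 to 0.774 times the read total in the controls and 1.37 to 1.42 times in the knockout.

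Genes averaging at least 1 FPKM were tested with limma 3.58.1 (R 4.3.3; empirical Bayes with trend) on log2(FPKM + 0.5), with Benjamini-Hochberg adjustment over all 16791 and an adjusted p of 0.05. The model was tested on simulated data with few genes changed and no shift over all genes, so that test does not bear on the scaling. The 5 ratios used exact permutation tests (scipy 1.17.1). Alternatives were pseudocounts of 0.1 and 1, no filter or 5 FPKM, other scalings, voom on recovered reads, no trend, a replicate block and leaving out each library. Every snRNP gene is named; pathway lists name the smallest p and the highest and lowest change past the threshold. The genes, lists and naming rules were chosen with earlier results of these data known. Nhp2l1 was the 1 list name not found as a symbol. Reads carry no molecular identifiers. Protein sequences were not used here, and some snRNA sequences are not reported here.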

Additional observations from a re-analysis of the deposited data

How the results depend on the processing

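Pseudocounts of 0.1 and 1, no filter and voom on the recovered reads left all 47 genes tested on the same side of the threshold. Genes that passed it also kept their direction. A filter at 5 FPKM did the same for the 46 genes with a value under it. For genes that did not pass, direction was not compared. The voom fit took the divisor behind the deposited FPKM as library size, so it kept the deposited scale and could not test it. Changing the scale did move calls. As deposited 26 were higher and 8 lower. FPKM rescaled gave 44 and 1, quantile normalization 44 and 1, and reads rescaled 41 and 1. Values that reversed were, with FPKM rescaled, Snrpd2 0.42, Snrpc 0.39, Snrpa1 0.82, Sf3b2 0.31, Snrnp27 0.56 and Ddx46 0.22; with quantile normalization, Snrpd2 0.50, Snrpa1 0.35, Sf3b2 0.64, Sf3b4 0.27, Snrnp27 0.21 and Ddx46 0.29; and with reads rescaled, Snrpa1 0.54 and Snrnp27 0.29. The scalings divide each library by different totals, by construction. Median-of-ratios factors added 1 call, Sf3a2 (0.35).

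Particle medians relative to all genes moved with the genes tested, because the median of all genes moved. Without a filter they were 0.56 (Sm), 1.07 (LSm), 0.20 (U1), 0.16 (U2), 1.04 (U2AF, now with U2af1l4), 0.77 (U4/U6), 0.61 (U5), 0.092 (tri-snRNP) and 0.047 (U11/U12), and with a filter at 5 FPKM 1.12, 1.63, 0.76, 0.73, 1.74, 1.33, 1.17, 0.65 and 0.61 in the same order. Quantile normalization gave U2 0.72, U2AF 1.74, U4/U6 0.85, U5 1.06 and tri-snRNP 0.63, and U11/U12 was 0.44 with FPKM and 0.45 with reads rescaled.

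Without 1 library at a time, 24 to 26 genes were higher and 7 to 9 lower, and the medians above all genes ran from 1.29 to 1.51 for LSm and from 0.31 to 0.47 for U11/U12. Snrpa1 lost its call without knockout library 2 (limma adjusted p = 0.055), and Snrpn, Sf3a2 and Txnl4a gained one without control library 1, control library 3 and knockout library 3. Same-numbered libraries did not deviate together (correlations -0.12, -0.05 and -0.04), which cannot exclude a pairing, and the labels state none. A replicate block gave 24 higher and 8 lower, with Sf3b1 and Snrnp200 not passing. Without a trend Snrnp200 did not pass. Depth limits U2af1l4, the controls of Lsm5 and the snRNAs.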
